A study of Mus musculus with 36 samples.

Results

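The diaphragm of mdx mice was compared with that of control mice at 28 days of age. The comparison used every array labelled as mdx or control diaphragm at that age, 3 of each, which is 6 of the 36 arrays of the series. All genes on the array were measured, and no value was used to choose the samples. The series as a whole profiled total RNA of the diaphragm of both genotypes at 7, 14, 23, 28, 56 and 112 days on Affymetrix mouse arrays, with 3 arrays for each age and genotype. The mdx mouse carries a mutation of Dmd, the gene of dystrophin, a protein that links the cytoskeleton of the muscle fibre to the surrounding matrix. The controls are described only as controls, and neither group had a stated treatment. The labels name no strain, sex or pooling of animals, and they number the replicates without saying that these came from separate mice. The p-values therefore rest on the spread among arrays within groups, pooled over the 12 groups of the series. That spread could be technical.

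Fibres without dystrophin break down during the early weeks of life in mdx mice and are replaced. In that repair, satellite cells, the stem cells that lie on the fibre, divide, switch on the myogenic regulators Myod1 and Myog, and fuse into new fibres. Young fibres carry embryonic and neonatal forms of the contractile proteins and acetylcholine receptors with the gamma subunit, which adult fibres replace with other forms. Macrophages clear the dead fibres and cells of the connective tissue lay down matrix. Because a piece of whole muscle was measured, fewer cells of a type and less RNA per cell cannot be told apart in any result below.

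Values are signal intensities, and each log2 difference is the mean of mdx minus the mean of control on the scale log2(signal + 32). It was tested with limma across 9291 probe sets that passed a filter on low signal, and a probe set is called higher or lower where the Benjamini-Hochberg adjusted p is under 0.05. At 28 days 225 probe sets were higher in mdx (2.42% of those tested) and 50 were lower (0.538%). The probe sets that carry 1 gene symbol came to 192 genes higher and 46 genes lower. In either direction, 275 probe sets were called (2.96%), and on 273 of these no mdx array overlapped a control array. Among all probe sets tested, 21.5% had no overlap, 11.5% with every mdx array above every control array and 10% with every mdx array below.

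The rises were larger than the falls. Among called rises the median log2 difference was 1.22, 136 exceeded 1, 47 exceeded 2 and 12 exceeded 3. Among called falls the median was -0.72, and 10 lay below -1 and 1 below -2. Over all probe sets tested the median was -0.04. The count of falls depended on single arrays: it was 32, 23 and 21 without control replicates 1, 2 and 3, and 26, 63 and 17 without mdx replicates 1, 2 and 3. The count of rises was 131 without mdx replicate 3 and between 160 and 206 without any other array. In every one of the 6 fits without 1 array, 121 of the 225 rises and 6 of the 50 falls were called.

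The third mdx array had the highest signal of its group for 174 of the 225 rises, the first for 26 and the second for 25. It also had the lowest signal for 29 of the 50 falls, against 17 for the first and 4 for the second. Dmd itself read 454, 482.4 and 533.2 on the control arrays and 271.2, 292.6 and 337.2 on the mdx arrays. All mdx arrays lay below all controls, but the log2 difference of -0.65 ± 0.299 (SE) was not called (adjusted p = 0.337). The mdx mutation stops the protein and not transcription, and where the probe set lies in the transcript was not established, so this reading is a weak check of the labels. At 23 and 56 days the same probe set was called lower in mdx, at -1.28 and -1.56 (adjusted p = 0.00954 and 0.000455). Utrn, which encodes the related protein utrophin, had a log2 difference of -0.13 (adjusted p = 0.925), which turned to 0.10 without mdx replicate 3.

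Quality measures differed within the groups. Control probe sets at the 3' and 5' ends of Gapdh had a signal ratio (3' over 5') of 0.2444, 0.03604 and 0.05784 on the control arrays and of 0.6603, 0.1054 and 0.0558 on the mdx arrays. Those of actin gave 0.9109, 0.3822 and 0.8847 on control arrays, against 0.9668, 0.268 and 0.12 on mdx arrays. Albumin, a liver product, read 5852 on mdx replicate 1 and between 169 and 837.6 on the other arrays, and 16 hepatocyte markers summed to 22735 on that array against 5748 to 9839 elsewhere. The part of these measures in the results was not tested one by one, apart from fits with either ratio as a covariate. Of 12 markers of skeletal muscle fibres none was called, and they summed to between 117401 and 269461 on the 6 arrays, so the arrays read muscle.

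The first of the results on regeneration concerned the subunits of the acetylcholine receptor, the channel that receives the signal of the motor nerve. Its alpha subunit Chrna1 and gamma subunit Chrng are known targets of the myogenic regulators, which bind the E-box CAGCTG, while Chrne replaces Chrng in the adult receptor. The 250 bases before the first listed start of each gene are shown because Chrna1 and Chrng were called higher at 28 days and Chrne was not, a contrast between genes that was not tested. They are from RefSeq on build GRCm38.p6, read on the strand of the gene, with CAGCTG in capitals. The windows are chr2:73580339-73580588 on the minus strand for Chrna1, chr1:87205561-87205810 on the plus strand for Chrng and chr11:70619195-70619444 on the minus strand for Chrne.
Chrna1: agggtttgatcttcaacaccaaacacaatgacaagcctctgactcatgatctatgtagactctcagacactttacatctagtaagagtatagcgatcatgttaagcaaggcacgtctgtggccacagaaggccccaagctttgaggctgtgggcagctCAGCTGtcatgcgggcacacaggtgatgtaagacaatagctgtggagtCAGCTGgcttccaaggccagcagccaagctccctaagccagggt
Chrng: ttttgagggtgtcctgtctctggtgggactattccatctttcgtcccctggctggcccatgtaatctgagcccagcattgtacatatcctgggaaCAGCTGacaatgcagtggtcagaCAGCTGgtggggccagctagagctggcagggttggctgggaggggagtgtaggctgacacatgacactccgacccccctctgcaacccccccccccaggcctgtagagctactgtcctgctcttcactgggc
Chrne: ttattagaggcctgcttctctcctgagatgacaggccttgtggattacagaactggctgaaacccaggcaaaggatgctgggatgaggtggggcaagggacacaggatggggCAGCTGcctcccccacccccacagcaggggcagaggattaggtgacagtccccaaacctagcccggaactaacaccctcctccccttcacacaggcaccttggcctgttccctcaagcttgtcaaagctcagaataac
The motif occurred 2 times in the window of Chrna1, 2 times in that of Chrng and 1 time in that of Chrne, and it reads the same on both strands. A motif match is a description of these letters and not a binding site.

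Chrna1 read 929.4, 934.1 and 923.9 on the control arrays and 2765.5, 3939.9 and 4886.7 on the mdx arrays, a log2 difference of 1.98 ± 0.162 (SE; adjusted p = 4.23e-10). Chrng read 735.4, 143.8 and 268.3 in controls and 2022.8, 2913.2 and 5284.4 in mdx, a log2 difference of 3.21 ± 0.415 (adjusted p = 4.37e-06), and its other probe set gave 2.35. Chrnd, the delta subunit, read 373, 85 and 532.5 in controls and 1140.5, 843.2 and 1235 in mdx, a log2 difference of 1.87 ± 0.391 (adjusted p = 0.00325). For these 3 subunits the groups did not overlap, while the controls of Chrng and Chrnd were themselves spread over a wide range. The call of Chrnd was lost without control replicate 2 (log2 difference 1.19, adjusted p = 0.0635). It was also lost in a fit without the arrays of other ages (adjusted p = 0.104). Chrne, the adult subunit, read 844, 670.8 and 660.8 in controls and 850.3, 441.5 and 1594.8 in mdx. Those groups overlapped, and none of its 3 probe sets was called, with log2 differences of 0.22, -0.08 and -0.77. Chrnb1, the beta subunit, had a log2 difference of 0.36 (adjusted p = 0.149). Of 12 measured genes of the receptor and the synapse, 3 rose and none fell. The list's median log2 difference was 0.36.

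Among the regulators of the myogenic program, each read by 1 probe set in the list, Myog had the largest difference. Myog, which drives myoblasts to differentiate, read 1762.9, 1209.5 and 1082.4 in controls and 5751.5, 3526.8 and 5481.5 in mdx, a log2 difference of 1.84 ± 0.305 (adjusted p = 0.000189). Myod1, the regulator of committed myoblasts, read 2624.5, 2769.9 and 2481.3 in controls and 4620.5, 5353.9 and 5270.9 in mdx, a log2 difference of 0.94 ± 0.165 (adjusted p = 0.000405). Both genes were separated between the groups. Id2, an inhibitor of such regulators, rose by a log2 difference of 0.93 (adjusted p = 0.00173). Ankrd2, a stretch-responsive protein of the sarcomere and nucleus, read 5083.6, 7176.4 and 6187.2 in controls and 14654.3, 13104 and 11203.2 in mdx. Its log2 difference of 1.08 (adjusted p = 0.00817) lost its call without control replicate 1 or mdx replicate 1, at 0.95 and 0.99 with adjusted p up to 0.0712.

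The remaining myogenic regulators did not pass the test. Myf5, which marks early myoblasts, read 272.8, 363.6 and 335.7 in controls and 422, 499.1 and 428.9 in mdx, a log2 difference of 0.44 (adjusted p = 0.402) without overlap of the arrays. Myf6, a regulator found in mature fibres, had -0.13 (adjusted p = 0.925), which turned to 0.04 with the actin ratio as a covariate. Pax3 had -0.63 (adjusted p = 0.647). Of 20 measured regulators, 4 rose and none fell, 9 differences were positive and 11 negative, and the median was -0.05. Mdfi, an inhibitor of Myod1, was read by a probe set at 67.1, 60.8 and 69.8 in controls and 946.5, 523.1 and 938.9 in mdx (log2 difference 3.05, adjusted p = 0.000913), whereas its other probe set, which stands for it in the list, gave -0.08 (adjusted p = 0.961).

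The largest changes among genes with a name were in genes of immature fibres. Myh3, the embryonic myosin heavy chain, read 93.9, 137.5 and 207.8 in controls and 8591.1, 6372.3 and 11058.1 in mdx. Its mean signal was 59.2 times as high in mdx, and the log2 difference was 5.62 ± 0.445 (adjusted p = 2.23e-10). Myl4, the embryonic and atrial essential light chain, read 530.6, 573 and 611.8 in controls and 23570.2, 14856.4 and 19052 in mdx, a log2 difference of 4.97 ± 0.256 (adjusted p = 1.23e-14). Its other probe set gave 0.87 (adjusted p = 0.0157), a call that was lost without control replicate 2 or mdx replicate 3 at 0.80 and 0.82. Myh8, the neonatal myosin heavy chain, read 385.3, 444.8 and 391.4 in controls and 6612, 5306.6 and 6954.5 in mdx, a log2 difference of 3.84 ± 0.297 (adjusted p = 1.49e-10). These 3 genes lay far above the controls on every mdx array, and mdx replicate 2 was the lowest for each. Myosin heavy chain genes are similar in sequence, and how much their probe sets share was not examined.

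Tnnt2, the troponin T of heart and young muscle, read 385.3, 396.8 and 192.7 in controls and 3002.1, 2644.3 and 4748.1 in mdx, a log2 difference of 3.30 ± 0.255 (adjusted p = 1.49e-10). Ankrd1, a sarcomere-linked protein induced by injury, read 262.3, 462.5 and 282.8 in controls and 2221.3, 3276.4 and 2929.3 in mdx, a log2 difference of 2.97 (adjusted p = 9.03e-08). Mybph, a myosin-binding protein, read 838, 895.2 and 1056.5 in controls and 3036.5, 3553.8 and 5600.6 in mdx, a log2 difference of 2.05 (adjusted p = 2.76e-07). None of these overlapped between the groups. Lower in size were Myl6b, a light chain of slow and non-muscle myosin, at 1.26 (adjusted p = 0.0261), Acta2, smooth muscle actin, at 1.02 (adjusted p = 0.00327) and Nes, the intermediate filament nestin, at 0.86 (adjusted p = 0.0034). The call of Myl6b was lost without any single array (1.19 to 1.33, adjusted p up to 0.142), and that of Nes without mdx replicate 3 (0.75, adjusted p = 0.0504).

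Of 22 measured genes of immature fibres, 9 rose and none fell, and the list's median was 0.24. The intermediate filaments Des and Vim had log2 differences of -0.06 and -0.13 and were not called. Actc1, cardiac actin, which young fibres also use, read 19194.3, 21905.5 and 19075.3 in controls and 20244.2, 17911.8 and 23886.8 in mdx on one of its probe sets. That difference of 0.04 (adjusted p = 0.968) changed sign in 3 alternatives, as did that of the other probe set (-0.10, adjusted p = 0.931) in 2.

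**Figure D1:**
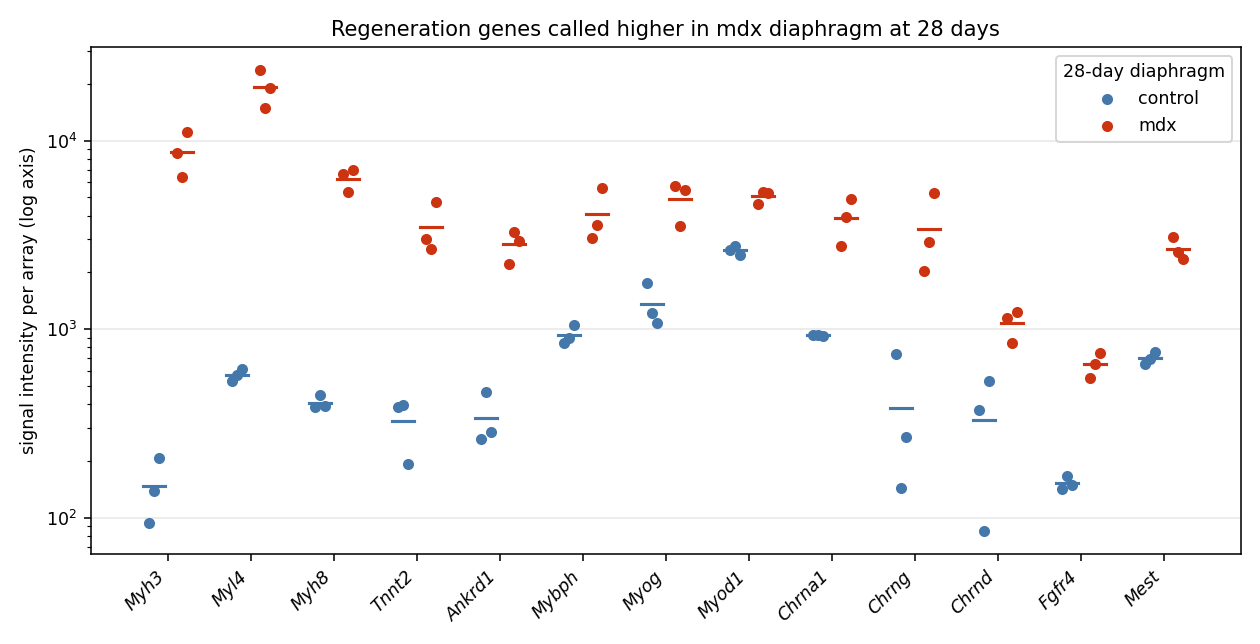
Signal intensity of 13 regeneration genes on each of the 6 arrays of 28-day diaphragm, on a log axis, with points for arrays and short bars for the mean of 3 arrays. The control and mdx arrays do not overlap for any gene shown, from Myh3 with a log2 difference of 5.62 to Myod1 with 0.94, and the controls of Chrng and Chrnd spread widely.

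Genes of satellite cells and of fusion mostly did not pass the test. Fgfr4, a fibroblast growth factor receptor of differentiating myoblasts, read 141.3, 166.2 and 148.1 in controls and 548.4, 653 and 748.4 in mdx, a log2 difference of 1.88 ± 0.363 (adjusted p = 0.00127). Vcam1, an adhesion molecule of satellite cells and activated vessels, read 292.1, 420.1 and 359.9 in controls and 757.6, 757.8 and 902 in mdx, a log2 difference of 1.11 ± 0.215 (adjusted p = 0.00128), while its other probe set gave -0.01. On these probe sets both genes were separated between the groups. Cdh15, the M-cadherin of satellite cells, had 0.49 (adjusted p = 0.319) and Ncam1 0.53 (adjusted p = 0.148), with all mdx arrays above the controls for both. Of 26 measured genes 2 rose and none fell, and the list's median was 0.14.

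Among growth factors the only call was a fall. Mstn, the gene of myostatin, which restrains muscle growth, read 1049.3, 1331.4 and 1622.8 in controls and 518.8, 677.7 and 906.8 in mdx, a log2 difference of -0.91 ± 0.194 (adjusted p = 0.00384). The call was lost without control replicate 3 or mdx replicate 1, at -0.72 and -0.76 with adjusted p up to 0.0576. It was also lost in a fit without the arrays of other ages (adjusted p = 0.093). Igf1 had a log2 difference of -0.21 (adjusted p = 0.842) and Igf2, a growth factor of fetal muscle, 0.26 (adjusted p = 0.94), with overlapping arrays. Tgfb1 had 1.02 (adjusted p = 0.258) with all mdx arrays above the controls. Of 25 measured growth factor genes none rose and 1 fell, and the median was -0.07.

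Imprinted genes, which are copied from 1 parental chromosome and are active in growing tissue, included 4 rises among 18 measured. Peg3 read 3675.3, 4487 and 3666.6 in controls and 8766.5, 7126.4 and 7562.8 in mdx, a log2 difference of 0.98 ± 0.128 (adjusted p = 4.83e-06). Its other probe sets gave 1.56 (adjusted p = 0.00106) and 0.32 (adjusted p = 0.68). Mest read 651.5, 692.8 and 754.3 in controls and 3078.3, 2552.2 and 2350 in mdx, a log2 difference of 1.87 (adjusted p = 5.74e-05). Dlk1, a regulator of precursor cells, read 1293.7, 1002 and 1185.6 in controls and 3274.8, 2454 and 2922.8 in mdx, a log2 difference of 1.29 (adjusted p = 0.000218). The mdx arrays of these genes all lay above the controls, and mdx replicate 1 was the highest for each. The fourth gene, Cdkn1c, inhibits the cell cycle and is given with that group. No imprinted gene fell, and the list's median was 0.35. A probe set of Meg3 that does not stand for it in the list was also called higher (log2 difference 1.0). It lost that call without mdx replicate 1 (0.81, adjusted p = 0.0527).

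Counting each gene of the 6 regeneration lists once, 22 of 120 measured genes rose and 1 fell, against 2.42% and 0.538% of all probe sets, and the median was 0.10 against -0.04. With any single array left out, between 20 and 21 of these genes were called higher. Mdx replicate 1 was the highest array for 9 of the 22, replicate 2 for 2 and replicate 3 for 11. Promoter windows were found for 18 of the 22 genes, and 7 of these held CAGCTG (38.9%), against 12.8% of 27025 mouse promoter windows of the same length. The 7 were Id2, Tnnt2, Mybph, Acta2, Chrna1, Chrng and Mest. Of the other motifs counted in the 18 windows, CCAAT was in 22.2%, against 34.5% of all windows. TTTGAA and TTCCCGC were in none, against 16.3% and 3.84%. The windows compared with were not limited to genes on the array, and no motif was tested.

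Several further rises outside the lists, chosen after their values were seen, were as well separated. Sox11, a transcription factor of embryonic tissue, read 240.7, 269.7 and 289.1 in controls and 1214.1, 1044.1 and 1271.5 in mdx (log2 difference 2.02, adjusted p = 7.89e-06). Runx1, a transcription factor induced in denervated and damaged muscle, read 199.9, 224.2 and 286.5 in controls and 1002.3, 914.1 and 1285.5 in mdx (2.03, adjusted p = 0.000869). Tubb6, a beta tubulin, read 2956.2, 3164.6 and 2672.4 in controls and 11421.1, 12556 and 14706.9 in mdx (2.12, adjusted p = 1.41e-10). The tubulin genes Tubb2a, Tubb3 and Tubb5 rose by 1.63, 1.24 and 1.04. A probe set without a single gene symbol had a log2 difference of 5.54, next to that of Myh3, and is not named.

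Most differences in genes of cell division were positive, and few passed the test singly. Mitosis genes are known to share the promoter elements CCAAT, bound by the factor NF-Y, and TTTGAA, which belongs to the cell cycle homology region. The windows of the called mitosis genes Ccnb2, Kif22, Cks1b and Smc2 are shown because each held both motifs, in capitals on either strand, so that CCAAT also appears as ATTGG and TTTGAA as TTCAAA. They are the 250 bases before the first listed start, from RefSeq on GRCm38.p6 and read on the strand of the gene. Their positions are chr9:70421555-70421804 (minus) for Ccnb2, chr7:127042421-127042670 (minus) for Kif22, chr3:89418292-89418541 (minus) for Cks1b and chr4:52438971-52439220 (plus) for Smc2.
Ccnb2: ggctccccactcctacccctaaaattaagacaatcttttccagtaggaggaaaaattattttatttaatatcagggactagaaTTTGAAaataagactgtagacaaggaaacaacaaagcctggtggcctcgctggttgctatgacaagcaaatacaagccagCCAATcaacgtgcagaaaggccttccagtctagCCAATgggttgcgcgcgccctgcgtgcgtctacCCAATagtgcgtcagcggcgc
Kif22: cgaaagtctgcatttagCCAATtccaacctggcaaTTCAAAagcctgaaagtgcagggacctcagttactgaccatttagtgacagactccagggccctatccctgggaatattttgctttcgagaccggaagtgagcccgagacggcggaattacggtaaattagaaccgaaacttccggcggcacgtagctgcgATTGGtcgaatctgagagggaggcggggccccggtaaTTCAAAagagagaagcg
Cks1b: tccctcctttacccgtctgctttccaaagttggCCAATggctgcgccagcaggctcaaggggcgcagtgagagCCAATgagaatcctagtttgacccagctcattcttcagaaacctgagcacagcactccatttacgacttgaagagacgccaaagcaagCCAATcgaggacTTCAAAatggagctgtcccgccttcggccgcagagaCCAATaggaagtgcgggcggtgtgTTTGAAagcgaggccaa
Smc2: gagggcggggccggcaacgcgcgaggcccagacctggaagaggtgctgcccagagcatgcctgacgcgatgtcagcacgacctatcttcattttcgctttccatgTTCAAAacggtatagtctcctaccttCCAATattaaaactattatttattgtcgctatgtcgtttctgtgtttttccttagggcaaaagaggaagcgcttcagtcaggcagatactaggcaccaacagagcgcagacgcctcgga
Of the 6 called mitosis genes 5 had a window, and 4 of these held each motif (80%), against 34.5% of all windows for CCAAT and 16.3% for TTTGAA. The E2F motif TTCCCGC was in none of the 5 and in 3.84% of all windows. The motifs do not contain one another, and so few windows allow a description only.

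Of 42 measured mitosis genes 6 rose and none fell, 35 differences were positive, and the list's median of 0.59 compares with -0.04 over all probe sets. On 22 of the 42 every mdx array lay above every control array, against 11.5% of all probe sets, and mdx replicate 3 was the highest mdx array for 32 of the 42. Kif20a, a motor protein of cytokinesis, read 100.6, 242.1 and 66.9 in controls and 579.6, 449.7 and 957.1 in mdx, a log2 difference of 2.11 ± 0.414 (adjusted p = 0.0015). Its other probe set gave 1.02 (adjusted p = 0.265). Kif22, a motor that moves chromosomes, read 1006.3, 999.3 and 1071.2 in controls and 1651.9, 2210.1 and 2356.1 in mdx, a log2 difference of 0.98 ± 0.211 (adjusted p = 0.00435). Cks1b, a partner of cyclin-dependent kinases, read 411.8, 748 and 600 in controls and 1441.5, 1424.9 and 2103.6 in mdx, a log2 difference of 1.46 ± 0.376 (adjusted p = 0.0233). Groups did not overlap for these genes.

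Birc5, which encodes survivin of the chromosomal passenger complex, read 403.5, 192.8 and 269.6 in controls and 648.5, 652.7 and 761.1 in mdx, a log2 difference of 1.22 (adjusted p = 0.0316). Smc2, a subunit of condensin, read 198, 242.8 and 329.5 in controls and 515, 566.3 and 621.4 in mdx, a log2 difference of 1.08 (adjusted p = 0.0191). Ccnb2, a mitotic cyclin, read 1187.8, 1199.6 and 1462.4 in controls and 2031.4, 2053.3 and 2980.3 in mdx, a log2 difference of 0.84 (adjusted p = 0.0435). Their mdx arrays were all above the controls, yet these calls stood close to the threshold. Aurkb, a mitotic kinase, had 2.10 (adjusted p = 0.0619), Cdk1, the kinase that starts mitosis, 1.67 (adjusted p = 0.0733), and Racgap1 1.40 (adjusted p = 0.0583). Mki67, a common marker of cycling cells, gave opposite signs on its probe sets, -0.60 (adjusted p = 0.435) and 1.19 (adjusted p = 0.177).

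Genes of DNA replication had smaller differences, of which 1 passed the test. Uhrf1, which links replication to DNA methylation, read 575, 166.7 and 269.4 in controls and 735.6, 914 and 1140.2 in mdx, a log2 difference of 1.52 ± 0.415 (adjusted p = 0.0366), and was the only one of 43 to rise. Top2a, a topoisomerase, had 1.46 (adjusted p = 0.152) with overlapping arrays, and Pcna, the sliding clamp of the replication fork, 0.46 (adjusted p = 0.402). The helicase subunits Mcm3 and Mcm4 had 0.60 and 0.70 (adjusted p = 0.161 and 0.205). None fell, 33 differences were positive and the median was 0.20. Among all probe sets 2.42% rose.

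Some inhibitors of the cell cycle also rose. Cdkn1a, the p21 inhibitor that accompanies exit from the cycle in myoblasts, read 1310.1, 1591.1 and 1467.1 in controls and 2824.7, 2833.5 and 3741.1 in mdx, a log2 difference of 1.08 ± 0.216 (adjusted p = 0.00195), with 0.82 (adjusted p = 0.119) on its other probe set. Cdkn1c, the p57 inhibitor, read 6758.9, 7197.5 and 5252.7 in controls and 12973.6, 10818.8 and 12674.6 in mdx, a log2 difference of 0.93 ± 0.156 (adjusted p = 0.000216). Rb1, the retinoblastoma protein, read 435.5, 595.6 and 430.4 in controls and 793.6, 688.1 and 858.6 in mdx, a log2 difference of 0.65 (adjusted p = 0.044). No mdx array of these genes fell within the controls. Cyclin D1 (Ccnd1) had 0.27 (adjusted p = 0.61), and Cdkn2a -1.87 (adjusted p = 0.074). Of 35 measured regulators of the first gap phase 3 rose and none fell, and the median was 0.11.

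Counted once, 10 of 120 measured proliferation genes rose and none fell, against 2.42% and 0.538% of all probe sets. Of the 120, 88 differences were positive, against 4165 of 9291 probe sets, and the median was 0.25 against -0.04. The count of rises was 6 without control replicate 1 or 3 or mdx replicate 1 or 2. It was 7 without control replicate 2 and 3 without mdx replicate 3. Without 1 array or another, the call was lost for Ccnb2 (each array), Uhrf1 and Birc5 (each but control replicate 1), Smc2 (controls 1 and 2, mdx 2 and 3), Rb1 (controls 1 and 3, mdx 1 and 3), Cks1b (controls 1 and 3, mdx 3) and Kif22 (mdx 3). The log2 differences in those fits were 0.66 to 0.94, 1.15 to 1.67, 0.99 to 1.25, 0.92 to 1.08, 0.58 to 0.64, 1.24 to 1.5 and 0.88, in that order, with adjusted p up to 0.307, 0.238, 0.192, 0.135, 0.237, 0.173 and 0.052. Calls of Kif20a, Cdkn1a and Cdkn1c held in each of these fits. With the actin ratio as a covariate, a setting chosen after seeing the data, the calls of Uhrf1, Birc5, Smc2, Cks1b, Ccnb2 and Rb1 were lost at adjusted p of 0.0543 to 0.149, while Cdk1 was called (adjusted p = 0.0492). In a fit without the arrays of other ages Uhrf1, Birc5, Smc2 and Rb1 were not called (0.0842, 0.0676, 0.0823 and 0.181). Without the filter on low signal Ccnb2 and Rb1 were not called (0.0555 and 0.0635), nor were Uhrf1 and Rb1 after quantile normalization (0.0626 and 0.0645), Uhrf1 with the Gapdh ratio (0.0619) or Rb1 with the higher pseudocount (0.0501).

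**Figure D2:**
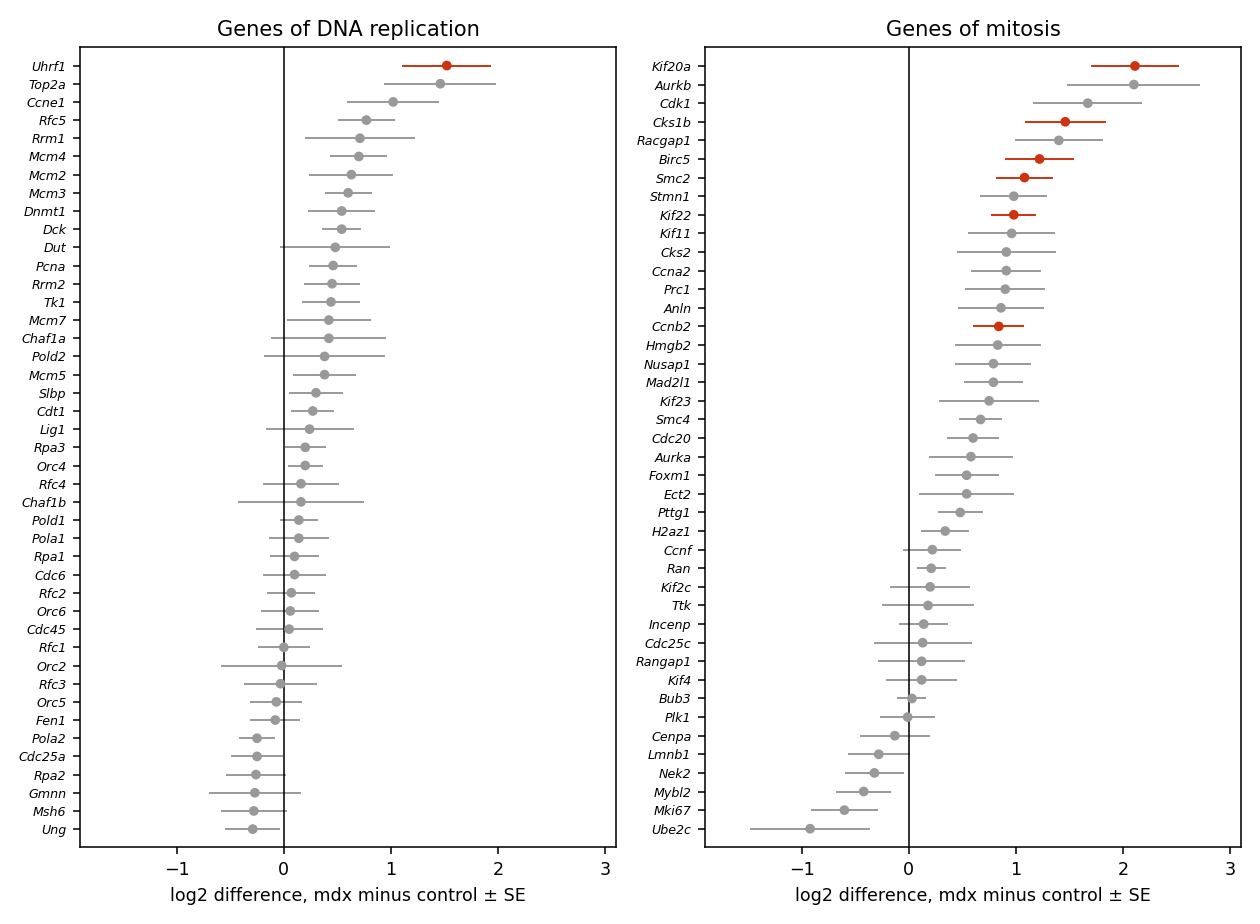
Log2 difference of mdx minus control at 28 days, with the standard error from the fit, for the 43 measured genes of DNA replication and the 42 of mitosis, ordered by size. Red points mark the 1 and 6 genes called higher and grey points the rest. Most mitosis genes lie right of 0, and the called ones are not the only large differences.

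Markers of macrophages rose beside these groups. Of 30 measured markers 19 rose and none fell, against 2.42% and 0.538% of all probe sets. The median was 1.48 against -0.04, and on 26 every mdx array lay above the controls, against 11.5% of all probe sets. Their summed signal was 35526 to 38487 in controls and 91117, 100582 and 151684 on mdx replicates 1, 2 and 3. Mdx replicate 3 was the highest mdx array for 26 of the 30 markers, as it was for 32 of the 42 mitosis genes. No marker was at 0 in the controls, where Ctss, a lysosomal protease, read 2185.8, 2619.7 and 2391.8, against 15436.5, 15755.4 and 25439.1 in mdx (log2 difference 2.92, adjusted p = 5.13e-11). How much of the rise in division genes lies in macrophages and how much in muscle precursors was not tested. Lgals3, the galectin of activated macrophages, read 342.4, 328.5 and 305.7 in controls and 3333, 3750.2 and 7549.6 in mdx (3.68, adjusted p = 2.58e-09).

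The chemokine Ccl2, which attracts monocytes, read 456.6, 288.3 and 40.6 in controls and 1955.4, 3444.6 and 2481.3 in mdx, a log2 difference of 3.53 (adjusted p = 4.7e-06). Its receptor Ccr2 read 387.1, 420.4 and 414.6 in controls and 1399.7, 2111.9 and 2630 in mdx, a log2 difference of 2.20 (adjusted p = 7.27e-06). Ligand and receptor were thus both separated between the groups. Of 22 measured genes of chemokines, their receptors and cytokines, 5 rose and none fell on the probe sets of the list. Among all probe sets 2.42% rose and 0.538% fell. Ccl7, Ccl9 and Il1rn, the interleukin 1 receptor antagonist, had 1.90, 1.16 and 2.20, with overlapping arrays for Ccl9. Each of these lost its call in 4 of the 6 fits without 1 array. Ccl2 and Ccr2 were the other rises in the list. Cxcl12 had -0.53 there (adjusted p = 0.0702), with all mdx arrays below the controls. Another probe set of Cxcl12 was called lower (-0.71), a call lost without control replicate 1 or mdx replicate 1. Among 47 matrix genes 6 rose and none fell, beside the same 2.42% and 0.538%, with a median of 0.08 against -0.04 over all probe sets. They included Tnc, the tenascin of healing tissue, at 2.35 (adjusted p = 2.43e-06), Postn, periostin, at 1.92 (adjusted p = 9.68e-10), and Mmp12, the macrophage elastase, at 2.92 (adjusted p = 6.55e-05). The collagen genes Col3a1 and Col18a1 had -0.13 and 0.10 in the list, without a call. Other probe sets of these genes were called higher, at 0.54 and 1.33, and each lost its call in 5 of the 6 fits without 1 array. Markers of neutrophils (9 measured), T cells (6) and B cells (7) gave no call on the probe sets of the lists, with medians of 0.23, 0.04 and -0.65. Another probe set of the B cell marker Ighm was called lower (log2 difference -0.80). It lost that call in 5 of the 6 fits without 1 array. Besides genes already given, the 15 largest rises held Chil3 (3.19), Fcgr1 (3.11), Adam8 (2.82) and Sirpa (2.71). Chil3 and Fcgr1 are markers of macrophages, and the other probe sets of Sirpa gave 1.17 and 1.26 without a call.

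The falls were fewer and smaller than the rises. Erdr1, which encodes a secreted factor first found in erythroid cells, fell most. It read 6740.2, 9500.7 and 9728.7 in controls and 2096.2, 1428.3 and 2850.3 in mdx, a log2 difference of -2.05 ± 0.315 (adjusted p = 6.86e-05), and its other probe set gave -0.29 (adjusted p = 0.694). Pvalb, parvalbumin, the calcium buffer of fast fibres, read 9308.3, 9419.5 and 9262.4 in controls and 3358.1, 5052 and 3673.4 in mdx, a log2 difference of -1.23 ± 0.253 (adjusted p = 0.00276). Its other probe set went the opposite way at 0.30 (adjusted p = 0.916), with arrays spread from 9552.3 to 26624.9. Both genes were called in all 6 fits without 1 array, but only on 1 of their probe sets. Car3, a carbonic anhydrase of muscle and fat, read 19561.1, 17910.1 and 20510.1 in controls and 10605.4, 10384.5 and 10077 in mdx, a log2 difference of -0.90 ± 0.243 (adjusted p = 0.034).

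Several called falls are genes of lipid synthesis and storage, set together here by their known roles after their values were seen. Scd1, which makes monounsaturated fatty acids, read 9044.8, 12649.6 and 15347.5 in controls and 3334.1, 5369.5 and 2221.7 in mdx, a log2 difference of -1.81 ± 0.345 (adjusted p = 0.00115). Its other probe sets gave -1.52 (adjusted p = 0.00204) and 0.28 (adjusted p = 0.934). Plin4, a coat protein of lipid droplets, read 4233.7, 5943.2 and 5161.6 in controls and 2539.6, 3576.7 and 2388 in mdx, a log2 difference of -0.85 ± 0.187 (adjusted p = 0.00527). In neither gene did an mdx array reach a control, and mdx replicate 3 was the lowest. Thrsp, a regulator of lipogenesis, fell by 0.68 on the log2 scale, Me1, which supplies NADPH, by 0.60, Lpin1, a phosphatidate phosphatase, by 0.50 and Gpam, the first enzyme of glycerolipid synthesis, by 0.49 (adjusted p = 0.0317, 0.0251, 0.0166 and 0.0389). Thrsp, Lpin1 and Gpam were picked from the calls after their values were seen.

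Markers of fat cells were mostly lower in signal in mdx. Of 10 measured markers, which include Scd1, 1 fell and 9 differences were negative, with a median of -0.58. They summed to between 20434 and 31094 on control arrays and between 10938 and 18264 on mdx arrays. Adipoq, the fat-cell hormone adiponectin, read 3992.4, 5213 and 5779.2 in controls and 2401.3, 2461.4 and 1675.7 in mdx, a log2 difference of -1.19 that was not called (adjusted p = 0.147). Fabp4, also expressed in fat cells and vessels, had -0.08 (adjusted p = 0.94). No marker was at 0, and the part of fat cells in the falls was not tested.

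Other called falls are genes with roles in blood vessels, also set together after their values were seen. Aqp1, a water channel of vessel walls and red cells, read 9192.3, 13324.4 and 14184.9 in controls and 6004.3, 8828.6 and 3970.6 in mdx, a log2 difference of -1.01 ± 0.23 (adjusted p = 0.00801). Klf2, a transcription factor induced by blood flow, read 780.2, 1129.2 and 983.8 in controls and 501.6, 247.8 and 125.1 in mdx, a log2 difference of -1.78 ± 0.448 (adjusted p = 0.0191). Ramp1, a subunit of the receptor for calcitonin gene-related peptide, read 11005, 10124.4 and 11253.3 in controls and 4795.6, 5468.1 and 5916.1 in mdx, a log2 difference of -1.0 ± 0.147 (adjusted p = 3.45e-05). Ptprb, a phosphatase of endothelial cells, read 1808.3, 1848.6 and 1984.6 in controls and 1147.7, 1217.6 and 800.3 in mdx, a log2 difference of -0.84 ± 0.21 (adjusted p = 0.0191). Every mdx array lay below every control for these genes, and mdx replicate 3 was the lowest for 3 of the 4, Ramp1 being the exception. Tie1, an endothelial receptor, read 3075.9, 3088.8 and 2814.5 in controls and 1834.4, 2149.6 and 1533.3 in mdx, a log2 difference of -0.70 ± 0.147 (adjusted p = 0.00325), and lost its call without mdx replicate 3 (-0.58, adjusted p = 0.0589).

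Of 12 measured endothelial markers, which include Tie1, 1 fell and 11 differences were negative, with a median of -0.33. They summed to between 36415 and 37282 on control arrays and between 29385 and 32741 on mdx arrays. Flt1, a receptor of the vascular growth factor, had -0.60 (adjusted p = 0.0847), Cdh5, the cadherin of endothelial junctions, -0.37 (adjusted p = 0.16) and Pecam1 0.45 (adjusted p = 0.827). No marker was at 0, and the part of a smaller share of endothelial RNA in these falls was not tested.

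The remaining large falls included enzymes of amino acid, ketone and purine metabolism. Ivd, an enzyme of leucine breakdown, read 5314.8, 5177 and 4994.1 in controls and 3117.7, 3095.4 and 2496.9 in mdx, a log2 difference of -0.83 ± 0.155 (adjusted p = 0.00096). Adk, adenosine kinase, read 11228.9, 10894.2 and 14046.2 in controls and 9189.3, 5645.8 and 5222.9 in mdx, a log2 difference of -0.88 (adjusted p = 0.0322), with -0.76 (adjusted p = 0.501) on its other probe set. Inmt, an enzyme that methylates amines, read 1062.5, 1048 and 1409.4 in controls and 465.5, 525.7 and 135.7 in mdx, a log2 difference of -1.73 (adjusted p = 0.00396). None of the 3 overlapped between groups. Oxct1, which lets muscle use ketone bodies, read 18067.3, 19741.3 and 17119 in controls and 12153.6, 14742.6 and 12514.5 in mdx, a log2 difference of -0.48 (adjusted p = 0.0191). Bckdhb and Auh, which act in the breakdown of branched-chain amino acids, and Acss1, a mitochondrial acetyl-CoA synthetase, fell by 0.71, 0.62 and 0.76 (adjusted p = 0.0435, 0.019 and 0.0162) and were picked from the calls. The remaining 2 of the 15 largest falls were Pcp4l1 (-0.93, adjusted p = 0.0253, with -0.29 on its other probe set) and Dock9 (-0.84, adjusted p = 0.0131).

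**Figure D3:**
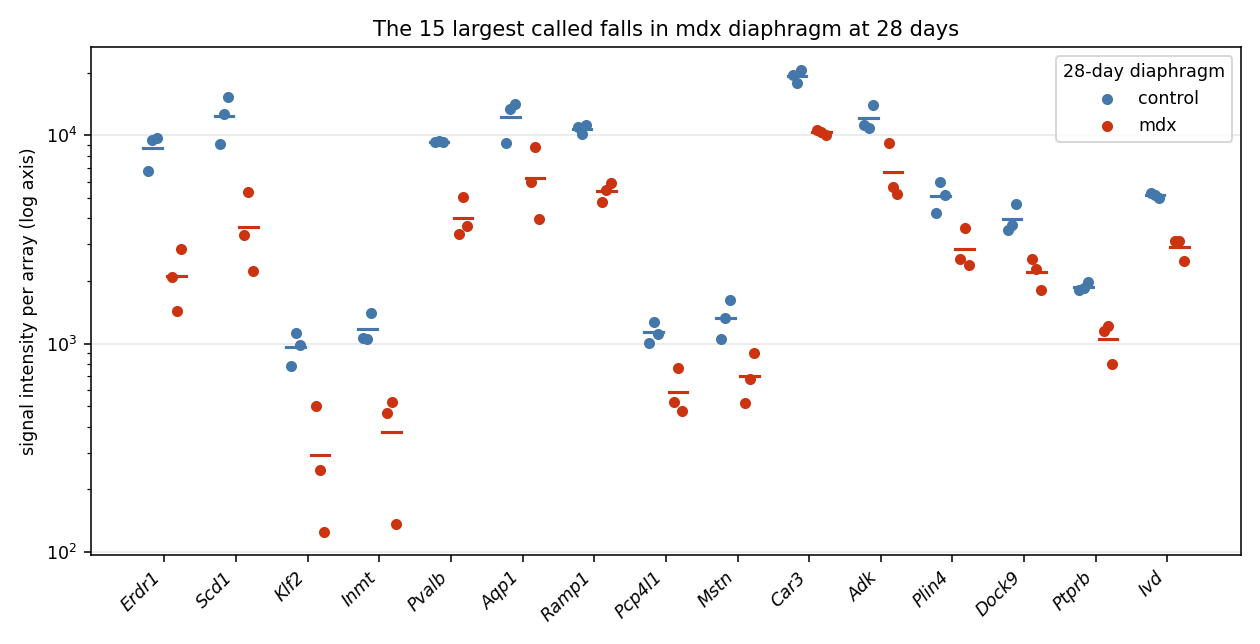
Signal intensity on each of the 6 arrays, on a log axis, for the 15 largest called falls at 28 days whose groups do not overlap, with 1 probe set per gene and short bars for the mean of 3 arrays. Erdr1 shows the largest log2 difference, -2.05, and Ivd the smallest of the 15, -0.83.

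Many of these falls depended on single arrays. Erdr1, Scd1, Pvalb, Ramp1 and Ivd were called in all 6 fits without 1 array. Car3 lost its call without each array (log2 difference -0.95 to -0.85), Adk without each but mdx replicate 1 (-0.95 to -0.73), and Klf2 without controls 2 and 3 and mdx 2 and 3 (-1.77 to -1.35). Pcp4l1 lost it without controls 2 and 3 and mdx 1 and 3 (-0.94 to -0.80), Ptprb without any control or mdx 3 (-0.86 to -0.65), and Aqp1 without controls 2 and 3 and mdx 3 (-0.94 to -0.72). For Plin4 it was lost without control 2 or mdx 3 (-0.74), for Dock9 without control 3 or mdx 3 (-0.71 and -0.70) and for Inmt without mdx 3 (-1.18). Adjusted p in these fits reached 0.145 for Car3, 0.247 for Adk, 0.234 for Klf2, 0.19 for Pcp4l1, 0.218 for Ptprb, 0.158 for Aqp1, 0.0674 for Plin4, 0.144 for Dock9 and 0.105 for Inmt. The picked falls lost their calls in several such fits as well: Thrsp in 6 (-0.73 to -0.65), Gpam in 5 (-0.54 to -0.37), Bckdhb in 5 (-0.77 to -0.50), Lpin1 in 4 (-0.49 to -0.43), Acss1 in 4 (-0.74 to -0.67) and Auh in 3 (-0.60 to -0.49), with adjusted p up to 0.356. In a fit without the arrays of other ages Klf2, Pcp4l1, Adk, Inmt and Aqp1 were not called (adjusted p 0.0559 to 0.103). With the actin ratio as a covariate Klf2, Adk and Ptprb were not called (0.0743, 0.0724 and 0.0536), nor was Ptprb after quantile normalization (0.0506).

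The lists of adult fibre genes and of energy metabolism held mostly small negative differences and few calls. Of 219 measured genes, counted once, 5 fell and 4 rose, against 0.538% and 2.42% of all probe sets. Negative differences numbered 187, the median was -0.20 and on 43 genes every mdx array lay below the controls, against 10% of all probe sets. The 62 genes of oxidative phosphorylation gave no call, 55 negative differences and a median of -0.17. The 12 genes of slow fibres gave no call and 12 negative differences with a median of -0.26, and the 22 of fast fibres no call and a median of -0.21. Among 31 genes of fatty acid oxidation and ketone use 1 fell, 29 differences were negative and the median was -0.29. The signal of fibre genes varied widely between arrays: the fast fibre genes summed to 446543, 223558 and 329616 in controls and 365528, 194148 and 304083 on mdx arrays.

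The called falls in these lists were Kcna5, a potassium channel, at -0.76 (adjusted p = 0.0109), Phkg1, the catalytic subunit of phosphorylase kinase, at -0.76 (adjusted p = 0.0295), Adssl1, the muscle enzyme of adenylate synthesis, at -0.53 (adjusted p = 0.0292), Oxct1 and Me1. Phkg1 read 3471.8, 4025.9 and 3659.5 in controls and 1954.5, 2610.9 and 2047.5 on mdx arrays. The count of 5 became 2, 1 and 1 without control replicates 1, 2 and 3, and 1, 9 and 2 without mdx replicates 1, 2 and 3. Single arrays ended the call of Kcna5 (control 3, mdx 1) at -0.67 and -0.63, of Phkg1 (each but mdx 2) at -0.80 to -0.68, of Adssl1 (any control, mdx 3) at -0.55 to -0.40, of Oxct1 (controls 1 and 2, mdx 1 and 3) at -0.49 to -0.43 and of Me1 (controls 2 and 3, mdx 1 and 3) at -0.63 to -0.53, with adjusted p up to 0.111, 0.153, 0.281, 0.118 and 0.171. The fit without the arrays of other ages ended the calls of Adssl1 and Oxct1 (adjusted p = 0.134 and 0.133). Quantile normalization did so too (0.115 and 0.123). The actin ratio ended those of Adssl1 and Phkg1 (0.0999 and 0.0851), and the Gapdh ratio that of Me1 (0.0584).

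The adult fast myosin Myh4 read 13629.3, 16481.1 and 22617.4 in controls and 9144.4, 12046.1 and 15674.6 in mdx, and the groups overlapped (log2 difference -0.52, adjusted p = 0.328). The slow troponin I gene Tnni1 had -0.78 (adjusted p = 0.359) and the fast light chain Myl1 -0.77 (adjusted p = 0.671), which turned to 0.11 without mdx replicate 2. Actn3, the actinin of fast fibres, had -0.12 (adjusted p = 0.922). So the adult contractile genes named here gave no call, beside rises of more than 3 on the log2 scale for Myh3, Myl4, Myh8 and Tnnt2. The 4 rises in these lists were Mt2, a metallothionein, at 1.83 (adjusted p = 4.11e-06), Cdkn1a, Cacng1, a calcium channel subunit of fibres, at 0.99 (adjusted p = 0.00114) and Pgam1, the non-muscle form of phosphoglycerate mutase, at 0.82 (adjusted p = 0.002). Pgam1 read 2077.2, 2073.5 and 1981.6 in controls and 3372.8, 3384.2 and 4195.9 in mdx.

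**Figure D4:**
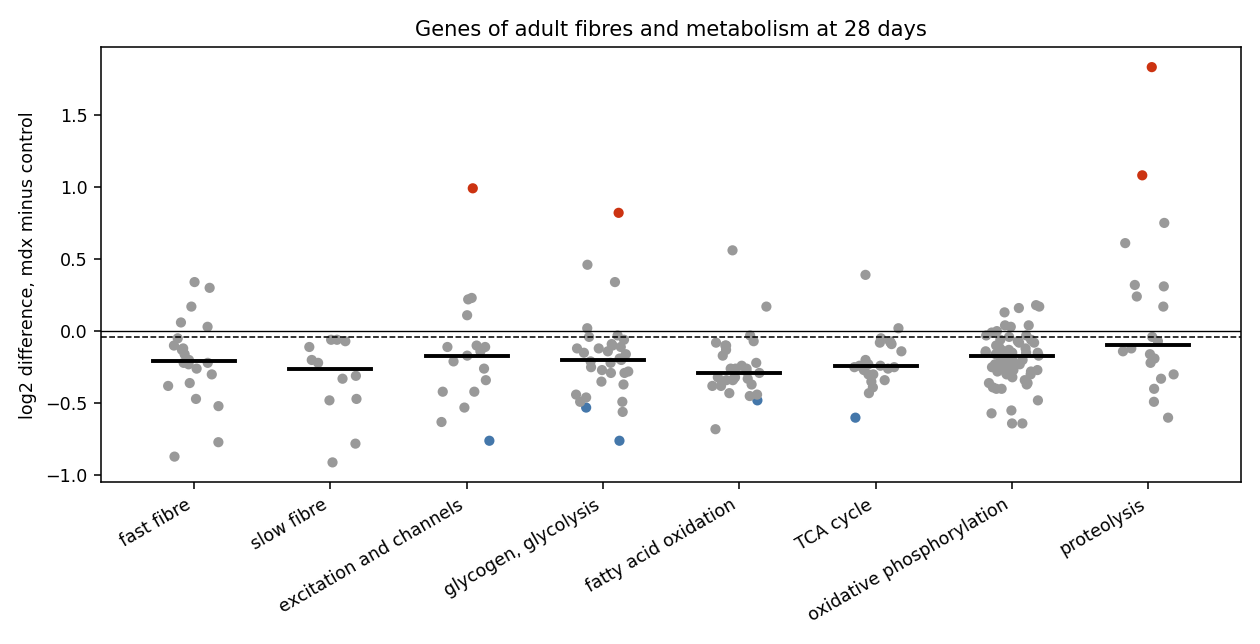
Log2 difference of mdx minus control at 28 days for each measured gene of 8 lists of adult fibre function and metabolism. Each point is a gene, black bars are list medians, the dashed line is the median of all probe sets (-0.04), and red and blue points are genes called higher and lower. Medians lie between -0.29 and -0.10, with 5 genes called lower.

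The 28-day difference was then set against those at 23 and 56 days, each measured against the controls of its own age. At 23 days 249 probe sets were higher in mdx (2.68%) and 75 lower (0.807%), 3.49% in either direction. At 56 days 861 were higher (9.27%) and 686 lower (7.38%), 16.7% in either direction. Of the 225 rises at 28 days, 136 were also rises at 23 days, which is 60.4% of those at 28 days and 54.6% of those at 23 days. The overlap of rises with 56 days was 172, or 76.4% and 20.0%. Of the 50 falls at 28 days, 17 were also falls at 23 days (34.0% and 22.7%) and 35 at 56 days (70.0% and 5.1%). No call went the opposite way at either age. The falls of 28 days had a median of -0.46 at 23 days and -0.68 at 56 days, and the rises 0.85 and 1.10.

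No probe set passed the test of the difference between 28 and 23 days (0%), where the lowest adjusted p was 0.14 and 367 had an unadjusted p under 0.05. Myh3 had log2 differences of 3.99, 5.62 and 5.26 at 23, 28 and 56 days, and Myh8 3.36, 3.84 and 3.81. Myog had 1.54, 1.84 and 2.26, and Chrna1 1.13, 1.98 and 1.76. Ankrd2 had 0.56, 1.08 and -0.07 and was called at 28 days alone of the 3 ages. Inmt had -0.51, -1.73 and -0.17 and Klf2 -0.34, -1.78 and -1.40, while Erdr1 had -2.74, -2.05 and -1.35. None of these genes passed a test of the difference between ages, so no change with age is shown for them. The median of the mitosis list was 0.50, 0.59 and 0.88 at 23, 28 and 56 days. For the lists of adult fibre genes and metabolism it was -0.23, -0.20 and -0.62, and 98 of the 219 genes fell at 56 days against 5 at 28 days, a difference between ages that was tested gene by gene only.

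Between 28 and 56 days 8 probe sets differed (0.0861%), and 1295 had an unadjusted p under 0.05. In 6 of them (0.0646%), 4 of which read matrix genes, the difference of mdx from control was lower at 28 days, and in 2 (0.0215%) it was higher. Postn read 4488.5, 6409.4 and 5466.1 in 28-day controls and 22325.4, 17891.6 and 21631.8 in 28-day mdx. At 56 days it read 1413, 1385.3 and 1779.5 in controls and 18862.7, 24603.9 and 18659.3 on mdx arrays. The mdx arrays of the 2 ages overlapped, and the controls at 56 days lay below those at 28 days, a step between ages that was not tested within a genotype. The log2 difference of mdx from control was 1.92 at 28 days and 3.73 at 56 days, and the difference of -1.81 ± 0.231 between the ages was the largest of the 8 (adjusted p = 8.19e-05). Genes of fibrillar collagen followed. Col3a1 read 1267.5, 1375.7 and 1326.4 in 56-day controls, all below the 28-day controls (4084.9, 4594.8 and 4850.9). Its mdx arrays were also lower at 56 days (5534.6, 5280.7 and 3744.7) than at 28 days (5938.1, 6617.6 and 7158.2). Its difference of mdx from control was 0.54 at 28 days and 1.83 at 56 days. Col1a2 read 17030.2, 19607.1 and 19974 in 28-day controls and 7758.3, 7569.5 and 8069.2 in 56-day controls, while its mdx arrays overlapped between the ages. Its difference from control was 0.13 and 1.16, and other probe sets of these genes were not called between the ages. Col6a3, a chain of the microfibrillar collagen, had 0.42 and 1.45, Ndrg4 0.61 and 1.85, and Actc1 0.04 and 1.26. For these 3 as well every control array was lower at 56 days than at 28 days, and the mdx arrays overlapped between the ages for Col6a3 and Actc1 and were all higher at 56 days for Ndrg4. Abcd3, a peroxisomal transporter, and Adcy2, an adenylate cyclase, had -0.12 and -0.21 at 28 days and -0.85 and -1.04 at 56 days. Postn was called in every alternative tried, and the count of 8 ranged from 2 to 28 when single arrays of the 2 ages were left out. It was 25 without mdx replicate 3 at 28 days, 26 and 28 without replicate 3 of the controls and of mdx at 56 days, 6 without mdx replicate 1 at 56 days and between 2 and 5 without any of the others.

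**Figure D5:**
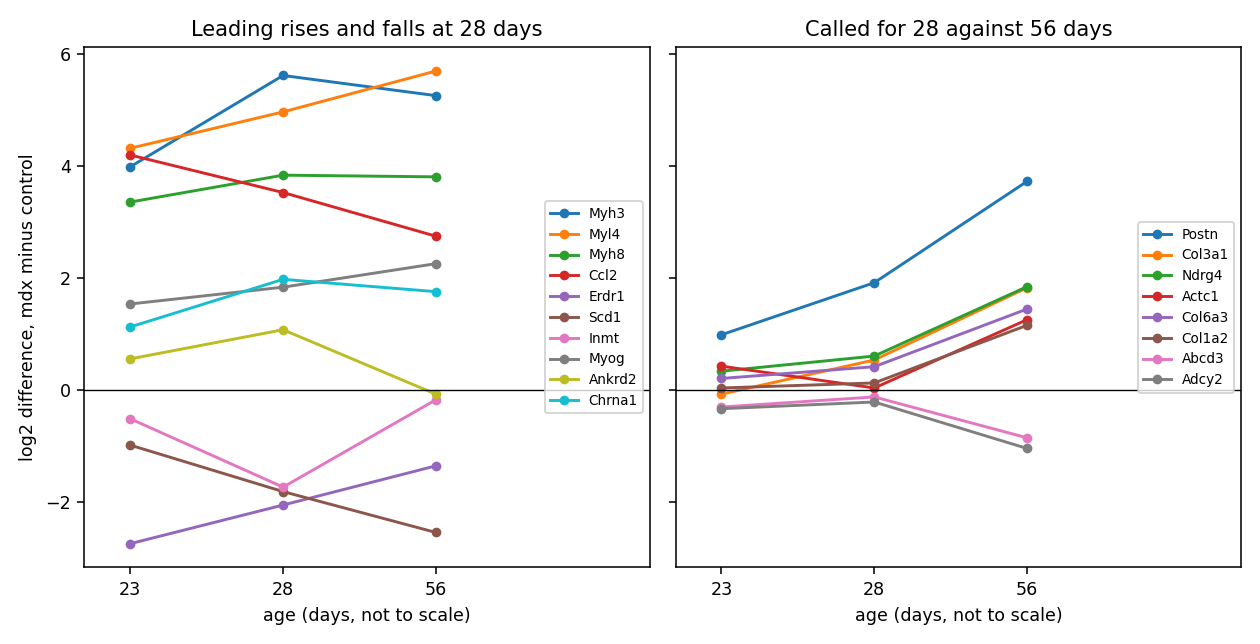
Log2 difference of mdx minus control at 23, 28 and 56 days, each against the controls of the same age, drawn without error bars and with ages evenly spaced. The left panel holds 10 leading rises and falls of 28 days, such as Myh3 (3.99, 5.62 and 5.26), and the right panel the 8 probe sets whose difference was called between 28 and 56 days, such as Postn (0.99, 1.92 and 3.73).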

How the data were processed

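Total RNA of mouse diaphragm was measured on 1-colour Affymetrix arrays, per the labels' protocols. The authors deposited 1 column of signal intensity per array on a linear scale. The mean between percentiles 2 and 98 of a column was 1499.2 to 1499.7, so columns were already scaled and were used as deposited. What software made them is not stated in the labels or file headers. With 3 arrays in each group, that number sets the precision.

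Of 12488 probe sets, 66 array controls were left out, and 10833 had 1 symbol in the platform annotation, 396 several and 1193 none, the last 2 kinds tested but not named. Probe sets above percentile 40 of all values (374.5) on at least 3 arrays were kept, which left 9291. limma 3.58.1 in R 4.3.3 fitted 12 group means over 36 arrays on log2(value + 32), with trended eBayes variances, 24 residual degrees of freedom (prior median 6.14), and Benjamini-Hochberg adjustment within each comparison. A difference between ages is an interaction term. The steps were tested on simulated data.

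The members and gene lists were chosen with earlier results of these data known. A list uses the probe set of highest mean signal for each gene. Named genes were Dmd and Utrn, the 15 largest called rises and falls without overlap of arrays, leading called members of each list, a set of fixed genes and the probe sets called between ages, and others are said to be picked. Alternatives were pseudocounts of 16 and 128, no filter or percentile 60, array weights, quantile normalization and the Gapdh ratio as a covariate. Others were a block for the replicate number, each array left out and a fit on only the ages compared. That fit took the 28-day arrays alone for the 28-day difference, and the arrays of both ages for a difference between ages. The actin ratio as a covariate was added after seeing the data. Over all probe sets replicate numbers showed little pairing: at 28 days deviations of same-numbered arrays from their group means correlated at -0.067, 0.147 and 0.014. Summed signals of fast fibre genes still ran in the same order of replicates in controls (446543, 223558 and 329616) and mdx (365528, 194148 and 304083). So did those of oxidative phosphorylation. Sums of excitation and channel genes did not (75268, 82834 and 84930, against 82937, 76627 and 70234). Whether same-numbered arrays were handled together was not tested.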

Additional observations from a re-analysis of the deposited data

Results flagged for a closer look

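The difference between mdx and control changed from 28 to 56 days by the test of the difference itself (limma interaction term) for 8 probe sets. Values are the log2 difference at 28 days minus that at 56 days. They were -1.81 for Postn, -1.29 for Col3a1, -1.24 for Ndrg4, -1.22 for Actc1, -1.03 for Col6a3, -1.02 for Col1a2, 0.73 for Abcd3 and 0.83 for Adcy2, with adjusted p of 8.19e-05, 0.00286, 0.00781, 0.0251, 0.0321, 0.0397, 0.0397 and 0.0397. Each was read by 1 probe set with the call, and of these only Postn was called under every alternative.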

How the results depend on the processing

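The counts rest on 3 arrays per group. Rises at 28 days (225) became 395 with array weights and 131 to 206 with single arrays left out. Falls (50) became 28 with the replicate block, 124 with array weights, and 17 to 63 with single arrays left out. Rises of regeneration genes (22) were 20 to 21 in the same fits. Those of proliferation genes (10) became 18 with array weights, 4 with the replicate block, 6 with the actin ratio and 3 to 7 with single arrays left out. The 5 falls of fibre and metabolism genes came to 3 both in the fit on the 28-day arrays alone and under the actin ratio. They numbered 2 under the replicate block, 14 under array weights and 1 to 9 when single arrays were dropped. The count for 28 against 23 days (0) became 27 with array weights and 0 to 3 with single arrays left out. For 28 against 56 days the count (8) fell to 5 without a filter and to 3 under the Gapdh ratio. The replicate block left 2, and the fit on the 28-day and 56-day arrays alone left 1. The higher pseudocount gave 16, quantile normalization 19, the filter at percentile 60 gave 24 and array weights 216. Dropping single arrays gave 2 to 28.

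Quantile normalization moved the median of that age difference over all probe sets from -0.12 to 0.00. The positive share among the called probe sets alone moved from 25% to 47.4%. Of 70 named calls at 28 days 42 were kept under all 16 alternatives, and of 33 named genes without a call 7 gained one in some. The direction turned for genes without a call. With single arrays left out, log2 differences ran from -0.26 to 0.10 for Utrn, from -1.32 to 0.11 for Myl1, from -0.22 to 0.67 for Chrne, from -0.10 to 0.47 for Igf2 and from -0.03 to 0.62 for the uncalled Pvalb probe set. They ran from -0.07 to 0.14 and from -0.23 to 0.07 for the probe sets of Actc1. Under array weights Chrne gave -0.02 and Actc1 -0.01, and quantile normalization gave 0.03 for its other probe set. The actin ratio gave 0.04 for Myf6 and -0.05 for Actc1, and the Gapdh ratio -0.09 for Igf2 and -0.04 for Pvalb. The cause was not tested. The actin ratio was chosen after seeing the data. Over all probe sets same-numbered arrays correlated weakly in their deviations, and not every array correlated best with its own number. The block took the adjusted p past the threshold for Uhrf1, Birc5, Smc2, Cks1b, Ccnb2 and Rb1 (0.0808 to 0.126), for Klf2, Car3 and Ptprb (0.0519, 0.0644 and 0.0977), for Adssl1, Phkg1 and Me1 (0.0621, 0.0755 and 0.0813), and at 28 days for Col3a1 and Ndrg4 (0.075 and 0.0852).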
